A study of Homo sapiens with 3 samples.

Results

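*PINCR* and 8 well-known long noncoding RNAs (lncRNAs), *NEAT1*, *MALAT1*, *GAS5*, *H19*, *MIR22HG*, *DANCR*, *SNHG1* and *TUG1*, were followed in A549 cells after transfection of either strand of the *miR-139* duplex. A probe was taken for a member when the RefSeq accession of its spot mapped to the symbol of that lncRNA. By this rule 8 of the 9 lncRNAs were found, with 18 of the 58201 probes on the arrays, and *TUG1* was matched to none. The arrays carried 22439 RefSeq symbols in all, and 3246 of them were lncRNA genes. The set was chosen by name with the signals of these same arrays in view and no stated threshold, so every difference given for them describes these arrays and carries no test.

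A549 is a human lung adenocarcinoma cell line. The 3 samples were A549 cells given transfection reagent only (mock), A549 cells transfected with *miR-139-5p*, the guide strand, and A549 cells transfected with *miR-139-3p*, the passenger strand, each hybridised to 1 Agilent array of 1 colour. All 3 were grown in RPMI medium and handled with Lipofectamine RNAiMAX, the precursors were used at 10 nM by the methods, and the time from transfection to RNA extraction for the arrays is not given in the sources used here. The mock cells received no control RNA, so the response to any small RNA duplex is not separated from the response to these sequences. Both comparisons share the mock array. Mock and *miR-139-5p* shared slide 1, while *miR-139-3p* was alone on slide 2, so for it slide and transfection cannot be told apart.

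Long noncoding RNAs are transcribed and mostly spliced like messenger RNAs but are not known for a protein product. Some build nuclear bodies, some bind proteins or chromatin, and some are carriers from whose introns or exons small nucleolar RNAs (snoRNAs) or microRNAs are cut. Several of them are induced by p53, the transcription factor that responds to DNA damage.

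The transfected strands are shown because they define the samples, and the microRNAs of *MIR22HG* and *H19* because these lncRNAs are their hosts. Sequences are from RefSeq for assembly GRCh38.p14, written 5′ to 3′, with the seed (bases 2 to 8) in capitals.
hsa-miR-139-5p: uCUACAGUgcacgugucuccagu
hsa-miR-139-3p: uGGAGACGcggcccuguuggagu
hsa-miR-22-5p, from *MIR22HG*: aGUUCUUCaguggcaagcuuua
hsa-miR-22-3p, from *MIR22HG*: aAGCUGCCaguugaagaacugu
hsa-miR-675-5p, from *H19*: uGGUGCGGagagggcccacagug
hsa-miR-675-3p, from *H19*: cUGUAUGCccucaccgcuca
The 6 microRNAs carried 6 different seeds, so none of the 4 microRNAs of *MIR22HG* and *H19* shares a seed with a transfected strand. The genes of miR-22 and miR-675 had 0 probes on the array, so only their host transcripts are described. Transcript sequences of the lncRNAs were not used here, and no seed site was looked for in them.

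Signals are the background-subtracted intensities of Feature Extraction, each with the error that this program gives for the spot. Differences are on the log2 scale after each array was divided by its 75th percentile signal, which was 93.6 for mock, 88.9 after *miR-139-5p* and 81.0 after *miR-139-3p*. The share of spots well above background was 49.9%, 48.1% and 53.1% in the same order, and no spot was saturated. Where a probe had 10 spots (300 probes), its spots had a median SD between 0.05 and 0.06 (log2). This is spread within an array, since each condition had 1 array and no spread between cultures was measured. Every member probe had 1 spot and none was an outlier spot. A difference of 0.5 (log2) is called past the threshold.

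All 10 markers of A549 and lung epithelium were detected on every array, with a summed scaled signal of 2454 in mock, 2045 after *miR-139-5p* and 1595 after *miR-139-3p*. Of these 10 genes, 6 were below -0.5 with *miR-139-3p*, led by the dehydrogenase *ALDH3A1* (-2.36, and -1.40 with *miR-139-5p*) and the reductase *AKR1B10* (-1.43, and 0.31 with *miR-139-5p*), and 1 was above 0.5, *EPCAM* (0.97). With *miR-139-5p*, 5 were below -0.5, the keratins *KRT8* (-0.85), *KRT18* (-0.77) and *KRT19* (-0.52), the cadherin *CDH1* (-0.54) and *ALDH3A1*, and 1 was above 0.5, *TFF3* (0.76). Of all RefSeq genes with a value, bounds included, 26.5% were above 0.5 and 27.9% below -0.5 with *miR-139-3p*, and 10.7% and 12.3% with *miR-139-5p*. Of 10 markers of immune, endothelial, stromal and differentiated lung cells on the array, 6, 5 and 7 were detected in the same order, with summed scaled signals of 2.65, 2.66 and 6.56. The last sum was mostly that of 1 gene, the stromal marker *ACTA2*, which read 138 in mock and 426 with *miR-139-3p*, and without it the sums were 1.17, 1.83 and 1.30 in the same order. Of the 6 measured on both arrays with *miR-139-3p*, 4 were above 0.5, *ACTA2* (1.83), *PTPRC* (1.26), *VWF* (1.05) and *SCGB1A1* (0.51), and 2 were below -0.5, *SFTPC* (-0.97) and *COL1A1* (-0.61). With *miR-139-5p*, *COL1A1* was above 0.5 (1.41), and *ACTA2* (-0.84) and *SFTPC* (-0.55) were below -0.5. *PECAM1*, *COL3A1* and *NKX2-1* were not well above background on any array. The part of these markers in the differences below was not tested. In RNA from a whole culture, fewer cells that hold a transcript and less of it per cell cannot be told apart.

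*PINCR* had the largest difference among member probes well above background on both arrays compared. It is a p53-induced lncRNA, known for binding the nuclear matrix protein Matrin 3 and for favouring cell survival after DNA damage. Its single probe gave a signal of 8.13 ± 1.46 in mock, 5.16 ± 1.38 after *miR-139-5p* and 91.8 ± 9.25 after *miR-139-3p*. Only the *miR-139-3p* array stood clear of the dim end of the scale, because the mock signal was close to the lowest signal called well above background on that array (4.82) and the *miR-139-5p* signal was not well above background. Against mock, *PINCR* was 13.0-fold higher with *miR-139-3p* (log2 3.71, SE 0.30 from the spot errors of both arrays).

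Of 25948 probes measured on both arrays, 11 had a higher value than *PINCR*, and of 1111 measured lncRNA genes, 0 did. As the mock signal was so low, the size of this difference depended on how background was removed. With normexp, a model of signal plus background with an offset of 50, it was 1.34 on the log2 scale, in the same direction. With *miR-139-5p*, *PINCR* read 66.8% of mock (log2 -0.58, SE 0.47), a value within the range that spot error gives. Against *miR-139-5p*, the *miR-139-3p* signal read 19.5-fold higher. Such a value, from a probe not well above background on 1 array, is called a bound. The signal there was set to the higher of its own value and the lowest signal called well above background on that array. For *PINCR* this was its own value, 5.16 against a lowest of 5.12, so spot error can move these ratios either way. For *H19* below, "at least" marks a bound.

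**Figure D1:**
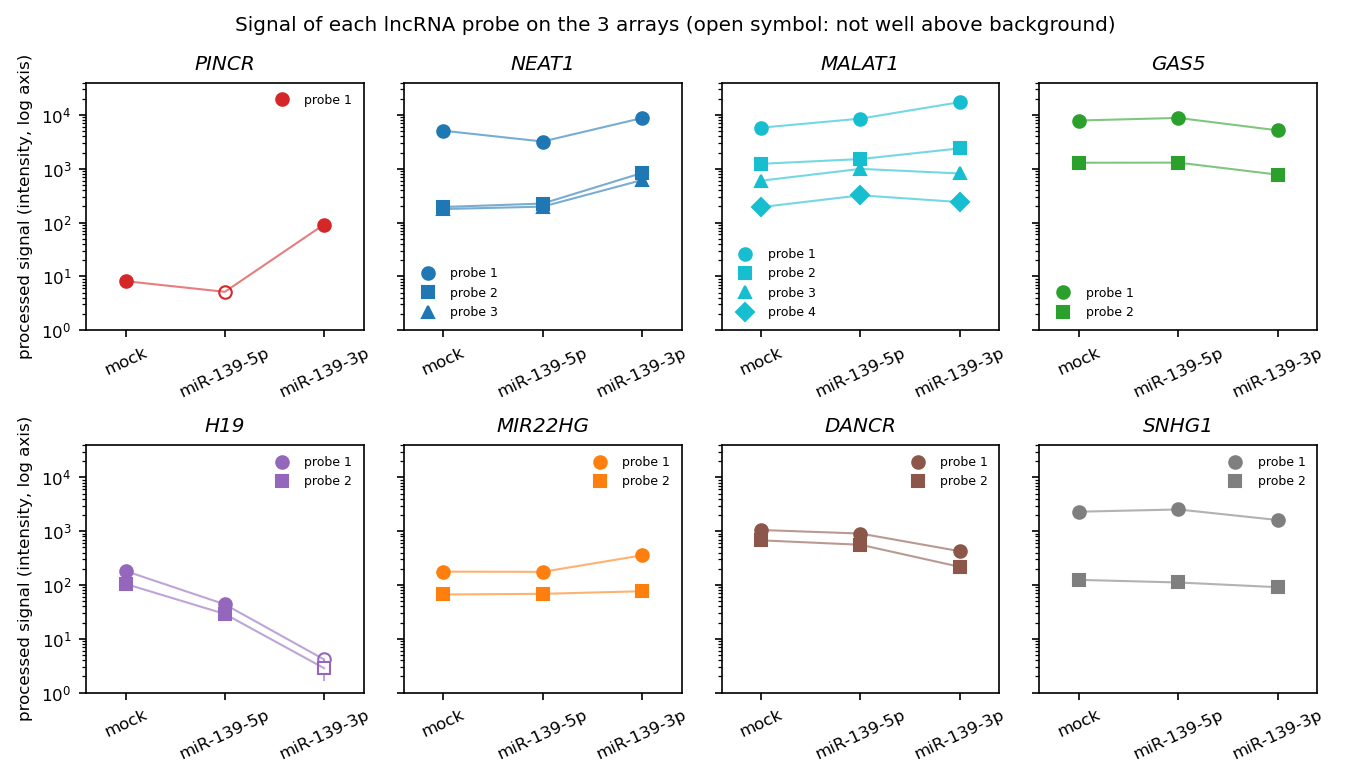
Processed signal (log axis) of the 18 probes of 8 lncRNAs on the 3 arrays, with mock on the left of each panel, then *miR-139-5p*, then *miR-139-3p*, 1 panel per lncRNA. Bars are the spot errors of Feature Extraction and open symbols are not well above background. *PINCR* goes from 8.13 in mock to 91.8 with *miR-139-3p*, *H19* steps down from 182 to 43.8 to 4.15 on its brighter probe, and the remaining members move within a narrower range.

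*NEAT1* and *MALAT1* are neighbours on the same chromosome and are retained in the nucleus. *NEAT1* is the scaffold of paraspeckles and a known p53 target, and *MALAT1* is an abundant RNA of nuclear speckles linked to splicing. For these and the members below, except *H19*, the error of each spot was between 10% and 10.2% of its signal, which gives an SE between 0.20 and 0.21 for each difference (log2).

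All 3 probes of *NEAT1* were higher with *miR-139-3p* than in mock. Probe 1, the brightest, read 5078 in mock, 3202 after *miR-139-5p* and 8718 after *miR-139-3p*. Probe 2 read 195, 225 and 831, and probe 3 read 178, 198 and 614, in the same order. The *miR-139-3p* array held the highest of the 3 signals for each probe. The differences from mock were 0.99, 2.30 and 1.99 (log2), or 1.98-, 4.94- and 3.98-fold, with a mean of 1.76 and an SD between probes of 0.69.

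With *miR-139-5p* the *NEAT1* probes disagreed. Probe 1 was lower than in mock by 1.51-fold (log2 -0.59, and between -0.76 and -0.47 over the settings tried), while probes 2 and 3 differed by 0.29 and 0.22, so that the mean was -0.03 with an SD of 0.49. *NEAT1* is made as a short and a long isoform, and the position of these probes on the isoforms was not examined. The probe of *MIR612*, a microRNA gene inside *NEAT1*, differed from mock by 0.67 after *miR-139-3p* and 0.15 after *miR-139-5p*.

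*MALAT1* was above mock on all 4 probes with both strands. Probe 1 read 5798 in mock, 8531 after *miR-139-5p* and 17235 after *miR-139-3p*, and probe 2 read 1234, 1512 and 2388. Probe 3 read 599.9, 993 and 817, and probe 4 read 194, 320.3 and 240.1. Before scaling, the highest signal was that of *miR-139-3p* on the brighter pair of probes and that of *miR-139-5p* on the dimmer pair. After scaling, *miR-139-3p* differed from *miR-139-5p* by 1.15, 0.79, -0.15 and -0.28 on probes 1 to 4. On probe 3 this was within the SE, and its order turned with the percentile over probes detected everywhere, at 0.79 (*miR-139-3p*) and 0.78 (*miR-139-5p*) from mock.

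The differences from mock of the 4 *MALAT1* probes were 1.78, 1.16, 0.65 and 0.52 with *miR-139-3p*, with a mean of 1.03 and an SD of 0.57. Over the settings tried, probe 3 lay between 0.45 and 0.86 and probe 4 between 0.31 and 0.66 with this strand, so neither was past 0.5 in all of them. With *miR-139-5p* they were 0.63, 0.37, 0.80 and 0.80, with a mean of 0.65, or 1.57-fold. *MALAT1* was the only member with a gene value above 0.5 in the *miR-139-5p* comparison. Of 1052 measured lncRNA genes, 39 had a higher value there.

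A neighbouring gene and protein partners were read beside these RNAs. *FRMD8*, the gene next to *NEAT1*, differed from mock by -1.09 (*miR-139-3p*) and 0.11 (*miR-139-5p*) on the 1 of its 2 probes that was measured. On that probe it stood below mock with *miR-139-3p*, unlike *NEAT1*.

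Of 15 proteins of paraspeckles and speckles, counted with the *PINCR* partner *MATR3*, 1 was above 0.5 with *miR-139-3p* (*TARDBP*, 0.51, whose 3 probes disagreed, the lowest at -0.08) and 3 were below -0.5, with a median of -0.00. The 3 were the RNA-binding proteins *CPSF6* (-0.79), *SFPQ* (-0.58) and *PSPC1* (-0.51), while the paraspeckle proteins *NONO* and *RBM14* differed by 0.09 and 0.25, with probes from -0.48 to 0.66 and from -0.26 to 0.75. The share of these proteins below -0.5 was not above the 27.9% of all RefSeq genes. *MATR3* itself differed by -0.00. With *miR-139-5p*, 0 of the 15 were past the threshold in either direction, and the median was 0.13.

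*H19* had the lowest value of any member in both comparisons. It is an imprinted RNA expressed from the maternal allele, abundant in the embryo and in many tumours, and the host of miR-675. Probe 1 read 182 ± 18.2 in mock, 43.8 ± 4.52 after *miR-139-5p* and 4.15 ± 1.03 after *miR-139-3p*. Probe 2 read 105 ± 10.5, 29.0 ± 3.23 and 2.86 ± 1.21. On both probes the 3 signals stood in the same order, mock highest, and neither probe stood well above background in the *miR-139-3p* sample.

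With *miR-139-3p*, *H19* was at least 36.5-fold lower than in mock on probe 1 and at least 21.0-fold lower on probe 2. The bounds are -5.19 and -4.39 on the log2 scale. The lowest difference among the 25948 probes measured on both arrays was -4.33, and among the 1111 measured lncRNA genes it was -3.24. With bounds included, 29745 probes and 1366 lncRNA genes had a value. *H19* was not ranked against the other bounds. With *miR-139-5p* both probes were measured, and the differences were -1.98 (SE 0.21) and -1.78 (SE 0.22), with a mean of -1.88. Of 25690 measured probes, 21 were lower than probe 1 and 44 were lower than probe 2. Of 1052 measured lncRNA genes, 1 was lower than *H19*.

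Against the *miR-139-5p* array, *H19* was at least 9.23-fold lower on probe 1 and at least 6.12-fold lower on probe 2 with *miR-139-3p*. Normexp, which compresses dim signals, gave -1.83 and -1.26 with *miR-139-3p*, and -1.15 and -0.91 with *miR-139-5p*, all below mock.

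*IGF2*, the imprinted growth factor gene next to *H19*, differed from mock by -0.44 after *miR-139-3p* and -0.11 after *miR-139-5p* on the 1 of its 2 probes that was measured. Farther along the same imprinted region, *KCNQ1OT1*, an imprinted antisense RNA, was above mock with both strands, by 1.73 after *miR-139-3p* and 1.28 after *miR-139-5p*. *CDKN1C*, a CDK inhibitor in that domain, differed by 1.66 and -0.45. Of these 3 genes, *KCNQ1OT1* stood opposite to *H19* with both strands.

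**Figure D2:**
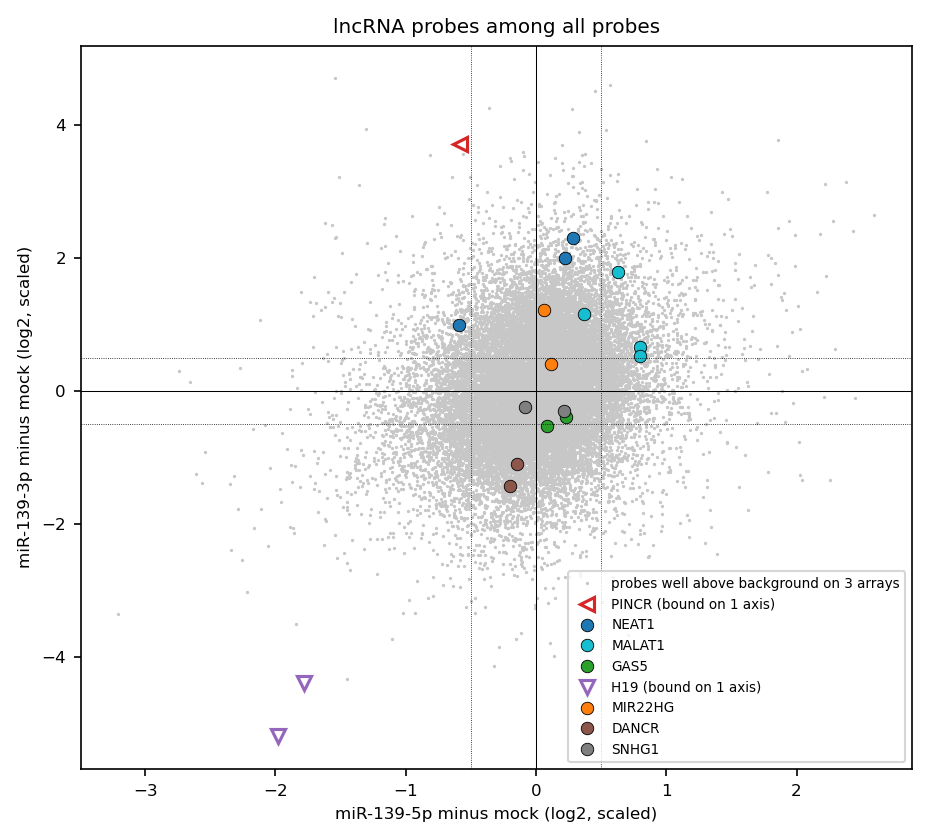
Difference from mock (log2, scaled) of the *miR-139-5p* sample (x axis) and the *miR-139-3p* sample (y axis) for each lncRNA probe (coloured) and for all probes well above background on the 3 arrays (grey). Open triangles are bounds on 1 axis and point to lower values, and dotted lines mark 0.5 in each direction. The *PINCR* bound is its own signal, so its true value may lie either way. *PINCR* lies at 3.71 on the y axis and *H19* at -5.19 and -4.39, outside the bulk of the probes. Both axes hold the same mock array, so the slope of the cloud is not a result.

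*MIR22HG* is the host of miR-22, a microRNA linked to growth arrest. Probe 1 read 177 in mock, 176 after *miR-139-5p* and 356 after *miR-139-3p*, and probe 2 read 66.8, 68.6 and 76.7. Only probe 1 stood apart on the *miR-139-3p* array, at 2.32-fold over mock (log2 1.21), while probe 2 differed by 0.41. The probes carry different transcript records of the gene. With *miR-139-5p* the differences were 0.06 and 0.11, within the spot error, and probe 1 reached -0.01 in 1 of the other settings. *WDR81*, next to *MIR22HG*, differed from mock by 1.01 after *miR-139-3p* and -0.05 after *miR-139-5p*.

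*GAS5*, *SNHG1* and *DANCR* are snoRNA hosts: their introns hold snoRNAs, which guide the modification of ribosomal and other RNAs, and the spliced host RNA is a by-product that nonsense-mediated decay can remove. *GAS5* is named for its accumulation in growth-arrested cells. *DANCR* is known for holding back differentiation. All 3 hosts read lowest on the *miR-139-3p* array on each of their probes.

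*DANCR* stood farthest from mock of the 3. Probe 1 read 1053 in mock, 905 after *miR-139-5p* and 426 after *miR-139-3p*, and probe 2 read 677, 560.4 and 218. With *miR-139-3p* these were 46.7% and 37.2% of mock after scaling (log2 -1.10 and -1.43, mean -1.26). Of 1111 measured lncRNA genes, 34 were lower. With *miR-139-5p* the differences were -0.14 and -0.20, no larger than the SE.

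*GAS5* probe 1 read 7867 in mock, 8790.2 after *miR-139-5p* and 5166 after *miR-139-3p*, and probe 2 read 1291, 1298 and 777. The differences from mock were -0.40 and -0.53 with *miR-139-3p* (mean -0.46) and 0.23 and 0.08 with *miR-139-5p*. *SNHG1* probe 1 read 2305, 2536 and 1616, and probe 2 read 125, 112 and 91.2, in the same order of arrays. Its differences were -0.30 and -0.24 with *miR-139-3p* (mean -0.27) and 0.21 and -0.09 with *miR-139-5p*, where probe 2 reached 0.03 in 1 of the other settings. Except for *GAS5* probe 2 with *miR-139-3p*, none of these was past 0.5. Scaling mattered at this size, since over the settings tried *GAS5* probe 2 lay between -0.73 and -0.31, which ends its call in some of them, *GAS5* probe 1 between -0.61 and -0.26 and *SNHG1* probe 1 between -0.51 and -0.10 with *miR-139-3p*.

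The snoRNAs inside these hosts were read beside the spliced hosts. Of 11 snoRNAs inside *GAS5*, 7 had a value. Their median with *miR-139-3p* was 0.10, with a range from -0.31 to 2.52, and 1 was above 0.5 (*SNORD74*, 2.52) and 0 were below -0.5. Of 9 snoRNAs inside *SNHG1*, 8 had a value, with a median of 0.44. Of these, 3 were above 0.5, *SNORD28* (1.80), *SNORD27* (1.35) and *SNORD29* (0.55), and 0 were below -0.5. *SNORA26*, inside *DANCR*, differed by 0.18 after *miR-139-3p* and 0.60 after *miR-139-5p*. Of all probes 33.8% were above 0.5 with *miR-139-3p* and 23.4% below -0.5, and no test sets the snoRNAs apart from other probes or from their hosts. *SNORD25* inside *SNHG1* (-0.42) and *SNORD77* inside *GAS5* (-0.31) read about as low as the host RNAs.

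With *miR-139-5p* the snoRNA medians were 0.01 for *GAS5*, with *SNORD77* lower at -0.77, and 0.29 for *SNHG1*, with *SNORD28* higher at 0.64. A probe to a snoRNA can also bind the unspliced host, and its share in these signals was not tested.

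Other snoRNA hosts, all lncRNA genes, were set beside these 3. Of RefSeq lncRNA genes with a value, 49.7% were above 0.5 and 11% below -0.5 with *miR-139-3p*, and 8.84% and 16.3% with *miR-139-5p*, and the lists of noncoding RNAs are read against these shares. Of 18 with a value with *miR-139-3p*, 5 were above 0.5, *SNHG21* (0.92), *EPB41L4A-AS1* (0.88), *SNHG12* (0.65), *SNHG6* (0.61) and *SNHG29* (0.53), and 0 were below -0.5, with a median of 0.07 and a lowest value of -0.38. *DANCR* at -1.26 lay below all of these, while *GAS5* at -0.46 did not differ from the lowest, *SNHG17*, by more than the SE, and single probes of *SNHG17* (-0.93) and *SNHG4* (-0.84) read below both *GAS5* probes. With *miR-139-5p*, 1 of 19 was past the threshold, *SNHG11* (-0.57), and the median was -0.08.

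*SLC3A2*, which encodes the heavy chain of an amino acid transporter and lies next to *SNHG1*, read 2139 in mock, 1370.3 after *miR-139-5p* and 438 after *miR-139-3p*, or -0.57 and -2.08 (log2) from mock. Its difference was larger than that of *SNHG1* with both strands. *ZBTB37*, which overlaps *GAS5*, differed by 0.69 and 0.41 in that order of strands, *miR-139-3p* first, and *USP46*, near *DANCR*, by 0.23 and 0.70.

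Among 9 factors of nonsense-mediated decay, 2 were above 0.5 with *miR-139-3p*, *UPF3A* (0.54) and *UPF3B* (0.50, at the threshold). *SMG5* (-0.61) was the 1 below -0.5, and the median was -0.07. Of all RefSeq genes 26.5% were above 0.5 and 27.9% below -0.5, so these counts do not set the factors apart. With *miR-139-5p* 0 were past the threshold and the median was -0.11.

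Over all 18 member probes with *miR-139-3p*, 9 were higher than mock by over 0.5, from *PINCR*, *NEAT1*, *MALAT1* and *MIR22HG*, and 5 were lower, from *H19*, *DANCR* and *GAS5*. With other scalings and background corrections the counts ran from 7 to 10 higher and from 4 to 7 lower, as *MALAT1* probes 3 and 4, *MIR22HG* probe 2, both *GAS5* probes and *SNHG1* probe 1 lie near the threshold. The background shares, for the main scaling only, were 33.8% of all probes higher and 23.4% lower, and 47.8% and 14.1% of the probes of lncRNA genes. The background moves with scaling too. Among measured probes, 7907 were higher and 6449 lower with the main scaling. Without scaling these were 5921 and 8716, and with the percentile over probes detected everywhere 9376 and 5124. The member shares were 50% and 27.8%. So the share of member probes that were higher was near that of lncRNA probes in general. At a threshold of 1, 6 were higher and 4 lower, against 16.2% and 9.99% of all probes and 24.2% and 6.53% of lncRNA probes.

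Probes of the RefSeq lncRNA class stood higher than other probes on the *miR-139-3p* array. The median difference was 0.47 over 1111 measured lncRNA genes and -0.09 over 14376 measured RefSeq genes. With bounds included (1366 and 15572 genes), 49.7% of lncRNA genes were above 0.5 and 11% below -0.5, against 26.5% and 27.9% of RefSeq genes. The share of higher probes depended on brightness, so it was read again over bright probes, those whose mean scaled level over the 3 arrays was above the 75th percentile. There 19.3% of all probes were higher and 32.1% lower, against 42.3% and 18.7% of lncRNA probes. The bright member probes were 14, all but those of *PINCR*, *H19* and *MIR22HG* probe 2, and 8 of them were higher and 3 lower.

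With *miR-139-5p*, 3 of the 18 member probes were higher than mock by over 0.5, all of *MALAT1*, and 4 were lower, the pair of *H19*, *NEAT1* probe 1 and *PINCR* by its bound. With scaling on the E1A spike-ins 2 were lower, as *NEAT1* probe 1 and *PINCR* each came to -0.47. The background was 11.1% of all probes higher and 12.6% lower, and 10.4% and 17.7% of lncRNA probes. At a threshold of 1, 0 were higher and 2 lower, both of *H19*, against 1.88% and 2.42% of all probes and 1.4% and 2.81% of lncRNA probes. Over bright probes, 3 of 14 members were higher and 1 lower, against 8.53% and 8.37% of all bright probes and 6.38% and 12.2% of bright lncRNA probes.

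The median of lncRNA genes with *miR-139-5p* was -0.05 over 1052 measured genes and that of RefSeq genes 0.00 over 14311. With bounds included (1199 and 15018 genes), 8.84% of lncRNA genes were higher and 16.3% lower, against 10.7% and 12.3% of RefSeq genes. The higher median of lncRNA genes seen with *miR-139-3p* was therefore not seen here.

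**Figure D3:**
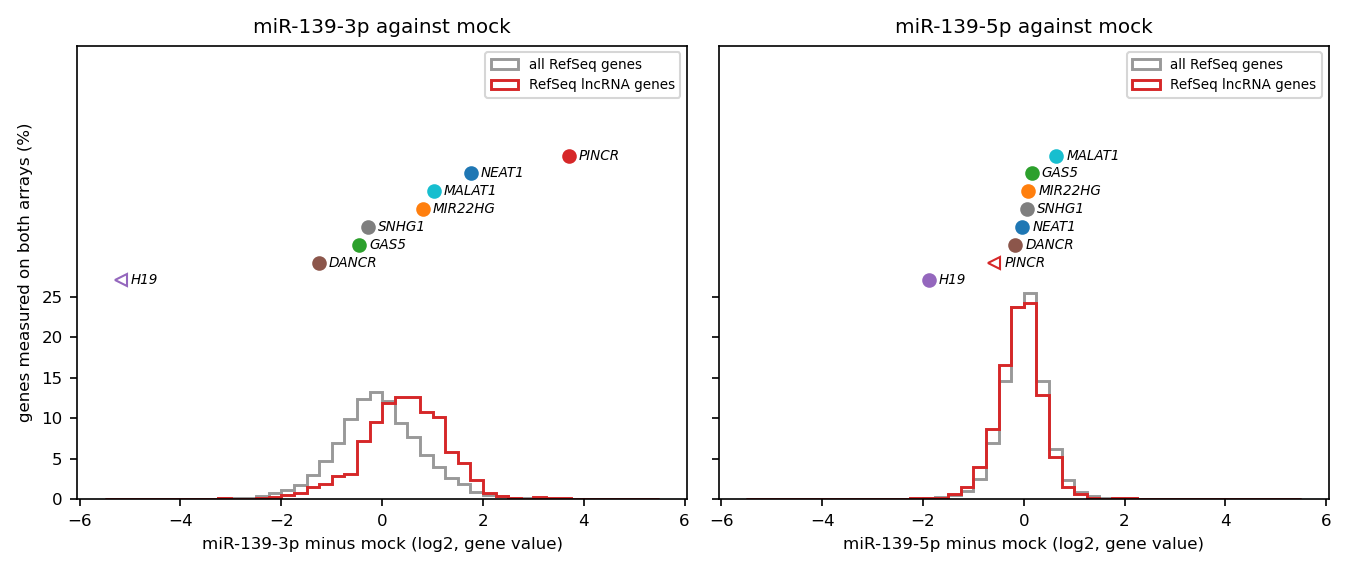
Share of genes (%) by their difference from mock (log2) for all RefSeq genes (grey) and RefSeq lncRNA genes (red), with *miR-139-3p* on the left and *miR-139-5p* on the right. Symbols above the curves mark the gene values of the 8 lncRNAs at arbitrary heights, and open triangles are bounds. With *miR-139-3p* the lncRNA curve lies to the right of the other, with medians of 0.47 and -0.09, *PINCR* lies at its upper end and *H19* beyond its lower end.

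Other lncRNAs linked to p53 were read beside *PINCR* and *NEAT1*. Of 5 with a value, 4 were above 0.5 with *miR-139-3p* and 0 below -0.5, with a median of 1.24. This median was 0.70 with normexp and 1.59 with the brightest probe per gene. *PURPL*, a p53-induced RNA known for restraining p53, was 8.65-fold higher (log2 3.11, 2.78 and 3.44 on its 2 probes). *PVT1*, whose gene holds a p53 response element, differed by 1.41 over 7 probes, from 0.96 to 1.83. *LINC-PINT*, another p53-induced transcript, differed by 1.24 over 7 probes, from 1.01 to 1.56. *MEG3*, an imprinted RNA known for raising p53 activity, differed by 1.17 over 5 measured probes. Every measured probe of these 4 RNAs was above mock by at least 0.58.

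With *miR-139-5p* the 5 had a median of 0.02. *MEG3* was higher by 1.22 and *TP53TG1* lower at -0.66, while *PURPL* (0.02), *LINC-PINT* (0.02) and *PVT1* (-0.11) were near mock. *MEG3* thus stood above mock with both strands, as *MALAT1* did.

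Of 5 genes that p53 activates, 5 were above 0.5 with *miR-139-3p*, with a median of 1.99 (1.11 with normexp). They were the antiproliferative gene *BTG2* (2.75), the p53 ubiquitin ligase *MDM2* (2.55), the ribonucleotide reductase subunit *RRM2B* (1.99), the CDK inhibitor *CDKN1A* (1.62) and the glutathione peroxidase *GPX1* (1.04). With *miR-139-5p* the median was -0.49 (-0.23 with normexp), and *CDKN1A* (-0.97) and *RRM2B* (-0.52) were below -0.5. These genes were chosen with their values known, and they support nothing about the lncRNAs.

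Other microRNA hosts were read beside *MIR22HG* and *H19*. Of 9 with a value with *miR-139-3p*, 1 was above 0.5, *MIR181A1HG* (0.68), and 1 below -0.5, *MIR503HG* (-0.52), with a median of 0.02. With *miR-139-5p* 2 were above 0.5, *MIR181A1HG* (0.93) and *MIR99AHG* (0.84), and the median was 0.06.

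Of 18 other well-known noncoding RNAs with a value, 8 were above 0.5 with *miR-139-3p* and 7 below -0.5, bounds included, with a median of 0.29 over the 15 measured. The list holds *TERC*, *RMRP* and *RN7SK*, which RefSeq does not class as lncRNAs, and of these *TERC* (0.87) and *RN7SK* (0.70) were above 0.5. Past 1 were *CRNDE*, named for its expression in colorectal tumours, at -1.88 over 4 probes from -2.16 to -1.50, *KCNQ1OT1* at 1.73 and *OIP5-AS1* at -1.04, whose 2 probes read -1.72 and -0.35. With *miR-139-5p*, 4 were above 0.5 and 0 below -0.5, with a median of 0.16. The 4 were *KCNQ1OT1* (1.28), *LUCAT1* (0.76), *HAGLR* (0.69) and *LINC00473* (0.53), and *CRNDE* differed by -0.00.

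**Figure D4:**
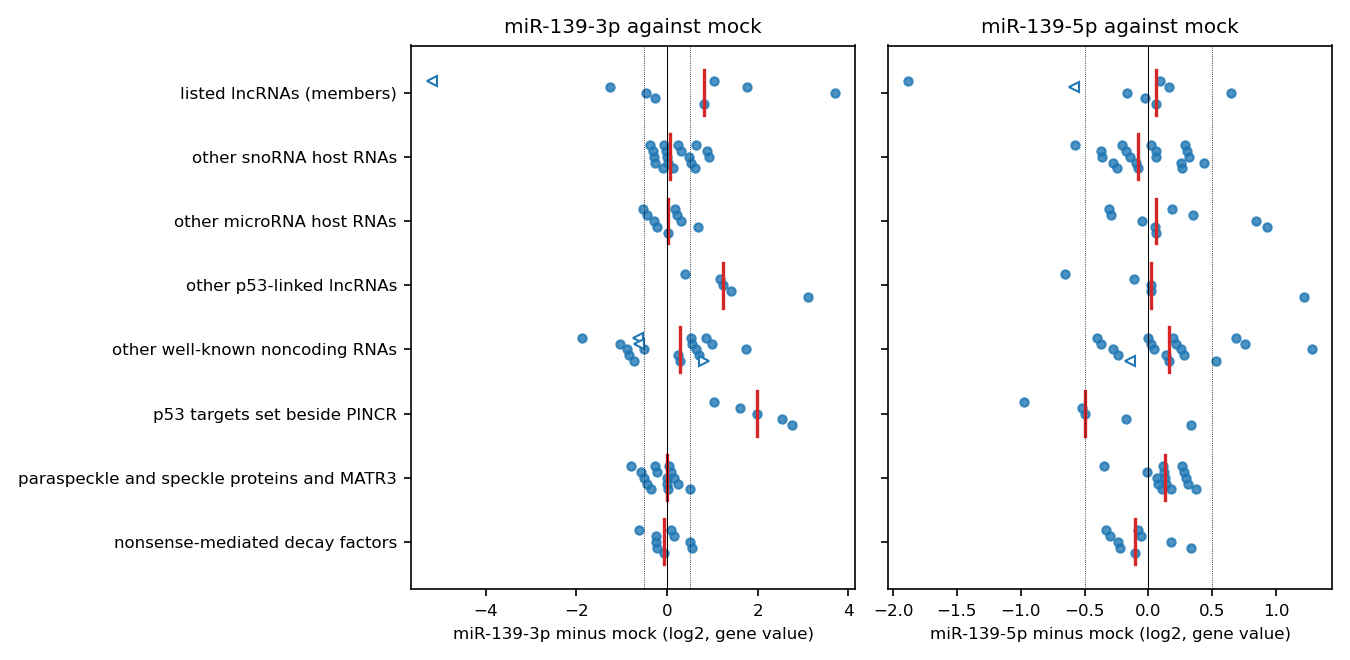
Difference from mock (log2) of each gene by list, with *miR-139-3p* on the left and *miR-139-5p* on the right, on axes of different range. Circles are genes measured on both arrays, open triangles are bounds, red bars are medians over measured genes and dotted lines mark 0.5. With *miR-139-3p* the medians of the p53-linked lncRNAs (1.24) and of the p53 target genes (1.99) stand highest, but both lists were chosen with such values known, so their place on the axis is not a result.

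The genes whose pair of differences lay nearest to that of *PINCR* (-0.58 after *miR-139-5p* and 3.71 after *miR-139-3p*) were sought among 13902 genes measured on all 3 arrays, by Euclidean distance over these 2 values. The pair is uncertain, since -0.58 is a bound (SE 0.47) and 3.71 has an SE of 0.30 and was 1.34 with normexp, so the order of the nearest genes carries no weight. Within this limit they were *SHC2*, an adaptor protein gene (-0.56 and 3.57, distance 0.14), the lncRNA *LINC00639* (-0.28 and 3.38, distance 0.44), *KANK3* (-0.64 and 3.21, 0.50), *SNORD116-12* (-0.51 and 3.21, 0.50) and the pseudogene *CROCCP3* (-0.10 and 3.31, 0.62). As *PINCR* lies near the end of the *miR-139-3p* scale, genes near it must lie there too.

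**Figure D5:**
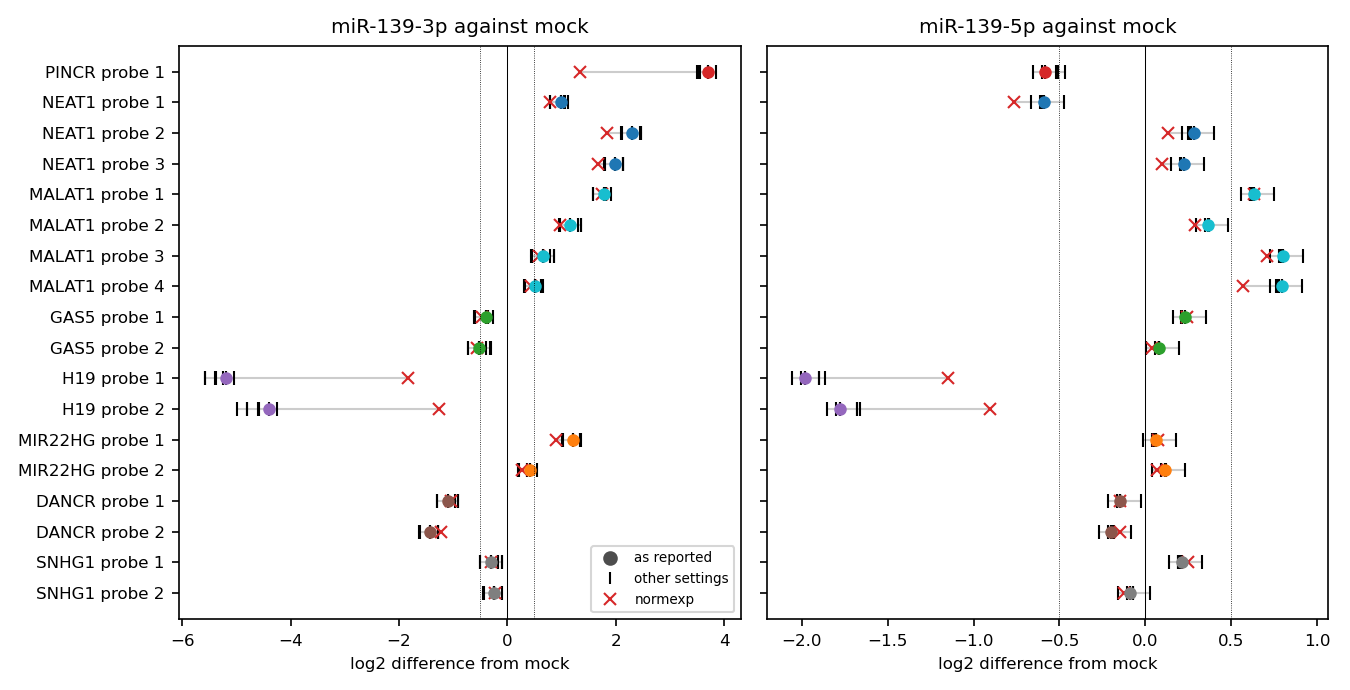
Difference from mock (log2) of each lncRNA probe as reported (filled circle), with normexp background correction (red cross) and in the other settings of scaling and spot filtering (black ticks), with *miR-139-3p* on the left and *miR-139-5p* on the right, on axes of different range. *PINCR* with *miR-139-3p* goes from 3.71 to 1.34 and the *H19* probes from -5.19 and -4.39 to -1.83 and -1.26 with normexp, on the same side of 0, while the brighter probes move by less.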

How the data were processed

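Total RNA of A549 cells was labelled with Cy3 and hybridised to 3 arrays, 1 per condition. Spot intensities were deposited as background-subtracted by Feature Extraction 12.1.1.1 and not normalized between arrays, with its error. The authors also deposited log2 values per probe, which matched quantile-normalized log2 signals of these arrays and were used as an alternative.

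The log2 of each processed signal minus that of the array's 75th percentile was computed, leaving out control spots and outlier spots (614 for mock, 935 after *miR-139-5p* and 1526 after *miR-139-3p*). A probe was well above background where at least 50% of its spots were, and a gene value was the mean of its measured probes. The SE was taken from the spot errors. Names came from RefSeq (GRCh38.p14): 6287 of 6493 probes with a noncoding accession were matched. The array was designed on another build, so no coordinates are given.

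No test was made. Some genes of the lists are not reported here and were left out of all counts and medians of their lists. The members and all 11 lists were chosen with earlier results of these data known. Named were all members, the genes of other lists past 1 (at most 4 per list) or covered by a count of 5 or fewer, and the 5 genes nearest to *PINCR*. In all, 10 alternative settings were computed, and 1 more (the shares over lncRNA genes) was added after seeing the data. The script was tested on simulated data. Python 3.11.15, pandas 2.3.3, R 4.3.3 and limma 3.58.1 were used.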

Additional observations from a re-analysis of the deposited data

How the results depend on the processing

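No difference of a member probe past the threshold was reversed in a setting that gave it a value. *PINCR* with *miR-139-5p* had a value in 8 settings and every other member probe in 9. A bound that does not fall below mock is given no value, so the remaining setting does not keep this *PINCR* difference. *PINCR* with *miR-139-3p* went from 3.71 to 1.34 with normexp, computed from spot medians and their local background. With *miR-139-5p*, member probes past the threshold went from 3 higher to 0 and from 4 lower to 2 at a threshold of 1, and from 4 lower to 2 with scaling on the E1A spike-ins. With *miR-139-3p*, the member median went from 0.81 to 0.27 without the filter on dim probes, the median of other p53-linked lncRNAs from 1.24 to 0.70 with normexp and to 1.59 with the brightest probe per gene, and that of the p53 target genes from 1.99 to 1.11 with normexp. With *miR-139-5p* the last went from -0.49 to -0.23 with normexp. The median of the 9 imprinted and neighbouring genes with *miR-139-3p* went from 0.23 to -0.11 with quantile normalization and to -0.11 with the deposited log2 values. Apart from normexp's construction, the cause was not tested. Of the values of single member probes, 271 moved by less than the typical SD over the probes of a gene and 16 by more.

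Scaling moved the median of all measured probes with *miR-139-3p* from 0.06 to -0.15 without scaling, -0.14 with the spike-ins and 0.20 with the percentile taken over probes detected everywhere, and the share higher among those past the threshold from 55.1% to 40.5%, 41.4% and 64.7%. It was 44.0% with normexp. With *miR-139-5p* the spike-ins moved the median from 0.01 to 0.13 and that share from 47.5% to 68.3%, and no scaling moved it to 34.7%. No paired analysis was possible because each condition had 1 array and no test was made, and no replicate could be left out. With 1 spot per member probe, differences under about the spot error are not resolved.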
